A study of Mus musculus with 31 samples.

Results

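The response of WSB/EiJ mouse liver to PF-04287881, a candidate antibiotic, was described from 7 of the 31 liver arrays of a study of 4 inbred strains. The group given the drug was WSB/EiJ females dosed with 600 mg/kg by oral gavage once a day for 7 days, labelled animals 1 to 3, 1 further animal having died of a gavage error. Its control was WSB/EiJ females given the vehicle, sterile water, on the same schedule, labelled animals 1 to 4. All were 8 to 10 weeks old at the start, and livers were sampled from the left lobe, 24 hours past the final dose. The other 24 arrays were females of MA/MyJ, NZW/LacJ and SM/J, 4 with the drug and 4 with the vehicle in each strain, and entered the fits to estimate the spread and the mean effect of the drug outside WSB/EiJ. WSB/EiJ is a wild-derived inbred strain, so animals of the strain are near-identical in genotype and describe that genotype alone. Of the 7 arrays, those labelled PF-04287881 animal 3 and vehicle animal 4 stood apart on probe sets private to the strain, as described below. The microscopic coding of the series gave vacuolation of Kupffer cells to MA/MyJ and NZW/LacJ and single cell necrosis to NZW/LacJ, and neither to WSB/EiJ. Arrays were chosen by their titles and not by any measured value.

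Hepatocytes make most of the RNA of the liver. They synthesise cholesterol under the control of the transcription factor SREBP2, which is released when membrane sterol falls, and they burn fatty acids in mitochondria and peroxisomes with enzymes under the nuclear receptor PPAR alpha. Kupffer cells are the resident macrophages of the liver and degrade engulfed material in lysosomes, and drugs that accumulate in lysosomes are known to load these with phospholipid. The proteasome degrades ubiquitinated proteins in all of these cells. In bulk tissue, a change in the number of cells of a type and a change in RNA per cell cannot be told apart.

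The array labelled PF-04287881 animal 3 went against its label. On probe sets private to WSB/EiJ, scaled so that the other strains average 0 and WSB/EiJ 1, it lay at 0.0133, and on the corresponding NZW/LacJ scale at 1.04. PF-04287881 animals 1 and 2 lay at 0.983 and 1.06 on the WSB/EiJ scale, and vehicle animals 1 to 4 at 0.864, 1.06, 1.06 and 0.536. On 300 genes that separate drug (1) from vehicle (0) in NZW/LacJ, the array labelled animal 3 lay at -0.00384, where NZW/LacJ drug arrays ran from 0.657 to 1.12 and vehicle arrays from -0.0397 to 0.0674. On 300 genes moved in the same direction in the other 3 strains, PF-04287881 animals 1 and 2 lay at 0.535 and 0.553 of those strains' mean effect, the array labelled animal 3 at 0.0294 and the vehicle animals between -0.0725 and 0.0696. Its nearest array was NZW/LacJ vehicle animal 1 (r = 0.9962 over all probe sets, against 0.9647 and 0.9666 with PF-04287881 animals 1 and 2), and for 136 of the 201 genes chosen for naming it lay within the range of the NZW/LacJ vehicle arrays. Differences, calls and list counts are therefore given without this array, which leaves 2 drug arrays against 4, and with it, 3 against 4. Apart from the fits in the closing section that left out 1 array at a time, fits that left out a further array left this one out as well. Vehicle animal 4, at 0.536, lay between WSB/EiJ and the other strains, at 0.0681, 0.132 and 0.052 on the scales of MA/MyJ, NZW/LacJ and SM/J. Its nearest array was WSB/EiJ vehicle animal 1 (r = 0.9907), and it was kept, with its value named where it stands apart. Albumin (Alb), the defining product of hepatocytes, averaged 14.69 in log2 units in PF-04287881 animals 1 and 2 (14.71 with the array labelled animal 3) and 14.74 in vehicle animals.

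**Figure D1:**
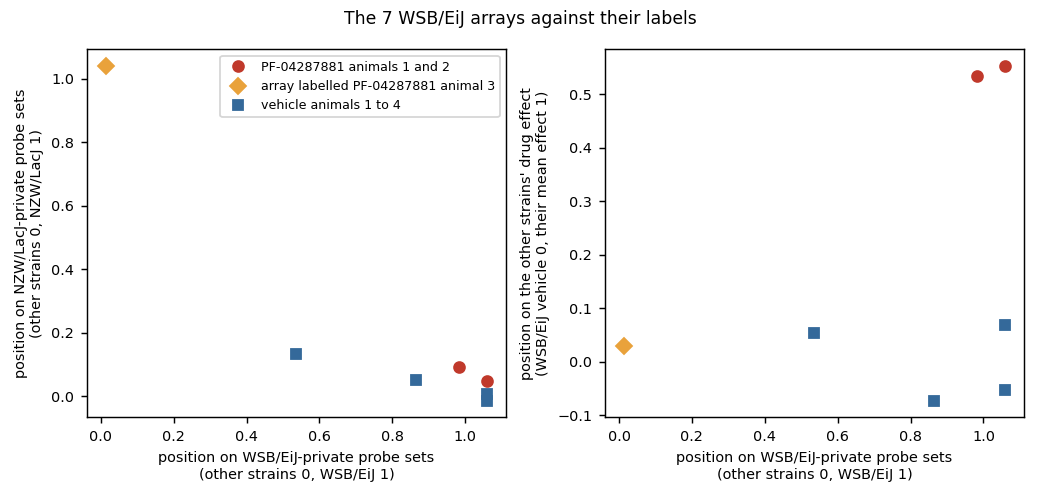
Position of the 7 WSB/EiJ arrays on strain-private probe sets (left: WSB/EiJ scale across, NZW/LacJ scale up) and on the drug effect of the other 3 strains (right, up). The array labelled PF-04287881 animal 3 sits at 0.0133 and 1.04 on the strain scales and at 0.0294 on the drug scale, apart from animals 1 and 2 at 0.535 and 0.553.

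Differences below are PF-04287881 minus vehicle in log2 units, so 1 is a doubling, and errors after ± are 1 standard error of the fit. A gene counts as called at a Benjamini-Hochberg adjusted p under 0.05 from limma, taken over all 12890 genes tested. Without the array labelled animal 3, 4180 genes were called, 1784 higher (13.8% of those tested) and 2396 lower (18.6%). With it, 2488 were called, 891 higher (6.91%) and 1597 lower (12.4%). The calls shared by both fits were 695 higher and 1419 lower, with 0 genes called in opposite directions, and 103 and 163 of these changed by over 2-fold in both. Both fits take the spread from all 4 strains, and a fit of the WSB/EiJ arrays alone called 990 genes without the array labelled animal 3 and 4 with it. The median difference over all genes was 0.02 in either fit. "Rose" and "fell" are used of genes called in both fits unless 1 fit is named. Where drug and vehicle arrays are said not to overlap, the array labelled animal 3 is counted as a drug array. Over all genes, those 3 arrays stood above every vehicle array in 6.31% and below in 7.8%. PF-04287881 animals 1 and 2 alone did so in 17.8% and 20%.

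The 4 genes called when the 7 arrays labelled WSB/EiJ stood alone were Nqo1 and Vnn1, lower, and Postn and Wfdc17, higher. That fit counted the array labelled animal 3 as a drug array, so these genes were chosen in part by its values. Wfdc17 is named because of this count, after its values were seen. Nqo1, a quinone reductase induced by the antioxidant regulator NRF2, had 7.82 and 7.94 in PF-04287881 animals 1 and 2 and 7.71 in the array labelled animal 3, against 9.62, 9.31, 9.10 and 9.35 in vehicle animals 1 to 4. The groups were apart by more than 1 log2 unit with or without that array, and the difference was -1.47 ± 0.16 without it (adjusted p = 1.86e-07) and -1.52 ± 0.14 with it (adjusted p = 2.1e-07). Vnn1, a pantetheinase and a classic PPAR alpha target, had 10.92 and 11.10 in animals 1 and 2 and 11.47 in the array labelled animal 3, against 13.36, 13.29, 12.95 and 13.42 in vehicle animals. It fell, with a difference of -2.25 ± 0.26 without that array and -2.09 ± 0.24 with it. Postn, the matrix protein periostin, had 9.47 and 9.29 in animals 1 and 2 and 9.73 in the array labelled animal 3, against 7.76, 7.55, 7.67 and 7.72 in vehicle animals, again with no overlap. The difference was 1.70 ± 0.30 without the array labelled animal 3 (adjusted p = 0.000107) and 1.82 ± 0.27 with it (adjusted p = 4.1e-05). Wfdc17, a small secreted protein of activated macrophages, had 8.87 and 8.84 in PF-04287881 animals 1 and 2 and 8.77 in the array labelled animal 3, against 7.60, 7.30, 7.62 and 7.45 in vehicle animals, a difference of 1.37 without that array (adjusted p = 0.00822) and 1.34 with it (adjusted p = 0.00674). For Nqo1, Vnn1 and Postn the NZW/LacJ vehicle arrays themselves ran from 7.72 to 7.97, 11.59 to 12.01 and 9.38 to 9.77, so the array labelled animal 3 also lay near untreated NZW/LacJ liver. No such range is given for Wfdc17.

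Most enzymes of cholesterol synthesis, 10 of 17, rose in WSB/EiJ liver. Of 17 tested enzymes, 12 were called higher and 0 lower without the array labelled animal 3, with a median of 1.46, and 10 and 0 with it, with a median of 1.10; all 10 were called in both fits. These are 70.6% and 58.8% of the list, beside 13.8% and 6.91% of all genes. Their promoters are shown first, because the enzymes moved together. The sequences below are RefSeq promoters of build GRCm38.p6, from 250 bases before to 50 after the gene start, 5′ to 3′ on the gene's strand, for the 4 enzymes with the largest rises among the members called in both fits that have an entry. Capitals mark the CCAAT box, the binding sequence of the factor NF-Y, written CCAAT or, on the other strand, ATTGG.
Cyp51 (chr5:4104648-4104947, minus strand): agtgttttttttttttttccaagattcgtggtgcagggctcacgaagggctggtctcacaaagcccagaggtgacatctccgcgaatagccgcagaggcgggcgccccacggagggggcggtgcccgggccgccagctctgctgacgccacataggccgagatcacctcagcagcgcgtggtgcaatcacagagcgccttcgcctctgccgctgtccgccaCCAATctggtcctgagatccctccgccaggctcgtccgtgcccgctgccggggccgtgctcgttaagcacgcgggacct
Nsdhl (chrX:72918271-72918570, plus strand): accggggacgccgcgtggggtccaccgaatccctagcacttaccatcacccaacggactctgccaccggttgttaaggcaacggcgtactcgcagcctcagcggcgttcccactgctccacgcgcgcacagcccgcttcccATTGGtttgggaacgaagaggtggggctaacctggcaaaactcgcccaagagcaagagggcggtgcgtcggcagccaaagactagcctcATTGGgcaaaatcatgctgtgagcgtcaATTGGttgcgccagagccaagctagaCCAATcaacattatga
Tm7sf2 (chr19:6067801-6068100, minus strand): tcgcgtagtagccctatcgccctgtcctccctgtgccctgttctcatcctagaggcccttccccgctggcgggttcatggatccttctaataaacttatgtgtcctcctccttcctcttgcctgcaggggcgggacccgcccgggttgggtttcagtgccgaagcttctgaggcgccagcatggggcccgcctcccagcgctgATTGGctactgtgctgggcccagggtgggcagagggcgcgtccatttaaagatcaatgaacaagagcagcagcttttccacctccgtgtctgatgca
Lss (chr10:76531355-76531654, plus strand): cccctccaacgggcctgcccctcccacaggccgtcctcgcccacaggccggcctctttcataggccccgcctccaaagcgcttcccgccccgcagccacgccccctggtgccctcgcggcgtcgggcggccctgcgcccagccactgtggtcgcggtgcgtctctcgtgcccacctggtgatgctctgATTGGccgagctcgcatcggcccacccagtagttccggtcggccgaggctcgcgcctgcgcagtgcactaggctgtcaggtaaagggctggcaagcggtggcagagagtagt
The box stood once in Cyp51, Tm7sf2 and Lss and 4 times in Nsdhl. CCAAT on either strand was found in 14 of the 14 tested enzymes with a promoter entry, against 41.1% of 27025 genes, and the sterol regulatory element in the form TCACNCCAC on either strand in 1 of 14, Hmgcs1, against 1.44% of genes. The motifs were searched separately, with overlaps left in. These are matches of letters and not binding sites, and Fdps has no entry in the table.

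Cyp51, the lanosterol demethylase of the post-squalene pathway, had 11.43 and 10.74 in PF-04287881 animals 1 and 2 and 8.76 in the array labelled animal 3, against 6.92, 6.85, 7.33 and 7.71 in vehicle animals 1 to 4. Every array labelled as drug was above every vehicle array, and the array labelled animal 3 lay within the NZW/LacJ vehicle range of 8.24 to 8.87. The difference was 3.89 ± 0.64 without the array labelled animal 3 (adjusted p = 4.66e-05), or 14.8-fold, and 3.11 ± 0.63 with it (adjusted p = 0.000997), or 8.63-fold. Fdps, the farnesyl diphosphate synthase at the branch to sterols, had 12.42 and 11.74 in animals 1 and 2 and 9.39 in the array labelled animal 3, against 8.69, 8.70, 8.48 and 9.05 in vehicle animals, and Nsdhl, a sterol dehydrogenase of C4 demethylation, had 11.60 and 10.38 in animals 1 and 2 and 9.39 in the array labelled animal 3, against 8.10, 7.70, 7.50 and 8.55 in vehicle animals. Neither gene overlapped between groups. Fdps rose by 3.35 ± 0.66 without and 2.46 ± 0.67 with that array, and Nsdhl by 3.03 ± 0.50 and 2.49 ± 0.48. Lss, the lanosterol synthase, rose by 1.96 ± 0.27 and 1.19 ± 0.37, but its value in the array labelled animal 3, 9.27, lay among vehicle values of 9.19 to 10.08. Tm7sf2, a sterol C14 reductase, had 12.03 and 11.90 in animals 1 and 2 and 11.54 in the array labelled animal 3, against 10.39, 10.03, 9.13 and 11.14 in vehicle animals. It rose by 1.79 ± 0.34 and 1.64 ± 0.30. Dhcr7, the last enzyme of the pathway, rose by 1.51 ± 0.34 and 1.10 ± 0.33.

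The rise was steeper in animal 1 than in animal 2. The list's mean level above the vehicle mean was 2.25 in PF-04287881 animal 1, 1.02 in animal 2 and 0.817 in the array labelled animal 3, against -0.317 to 0.431 in vehicle animals. Vehicle animal 4 was the highest of these. NZW/LacJ vehicle arrays lay between 0.615 and 0.964 on the same scale. Sqle, the squalene epoxidase, showed this gap between the animals, with 11.79 in animal 1 and 8.87 in animal 2 (7.78 in the array labelled animal 3), against 7.03, 6.76, 7.27 and 8.40 in vehicle animals 1 to 4. It was called without that array (2.97 ± 0.92, adjusted p = 0.0142) and not with it (2.12 ± 0.86, adjusted p = 0.0847), and leaving out animal 1 as well gave 1.50 (adjusted p = 0.404). Msmo1, a sterol C4 oxidase, was likewise called without that array alone (1.46 ± 0.56, adjusted p = 0.0473; 1.37 ± 0.49 with it, adjusted p = 0.0509). Dhcr7 lost its call with animals 3 and 1 left out (0.97, adjusted p = 0.113). The list median then stood at 0.859, and at 2.05 with animals 3 and 2 left out.

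Of 16 genes of sterol sensing and uptake, 5 were called higher and 1 lower without the array labelled animal 3, and 3 and 1 with it. The sterol sensing list had 31.2% of its genes called higher and 6.25% lower without that array, beside 13.8% and 18.6% of all genes, and 18.8% and 6.25% with it, beside 6.91% and 12.4%. Abcg5, a subunit of the transporter that secretes cholesterol into bile, had 12.08 and 12.60 in animals 1 and 2 and 11.51 in the array labelled animal 3, against 10.27, 10.58, 11.01 and 10.66 in vehicle animals. It rose by 1.71 ± 0.27 without that array and 1.44 ± 0.26 with it. Insig1, the sterol-sensing anchor of SREBP and itself an SREBP target, rose by 1.52 ± 0.36 and 1.22 ± 0.33, and Npc2, which hands cholesterol out of lysosomes, by 0.64 ± 0.13 and 0.59 ± 0.11. Nr1h3, the sterol receptor LXR alpha, fell (-0.52 ± 0.07 and -0.45 ± 0.07). Abcg8, the partner of Abcg5, was at 0.75 (adjusted p = 0.04) and 0.51 (adjusted p = 0.171), and Scap, the SREBP escort, at 0.61 (adjusted p = 7.94e-06) and 0.32 (adjusted p = 0.0853). Insig1 lost its call with animals 3 and 1 left out (1.22, adjusted p = 0.0726). Among 22 genes of fatty acid and triglyceride synthesis, 2 were called higher and 4 lower without the array labelled animal 3, and 2 and 1 with it. The lipid synthesis list had 9.09% of its genes called higher and 18.2% lower without that array, beside 13.8% and 18.6% of all genes, and 9.09% and 4.55% with it, beside 6.91% and 12.4%. Apart from the lower calls with that array, these shares lie near those of all genes. The only calls shared by both fits were Acss2, an acetyl-CoA synthetase, and Me1, malic enzyme. Acss2 had 11.83 in animal 1 and 9.64 in animal 2 (10.84 in the array labelled animal 3), against 9.38, 9.19, 8.97 and 9.98 in vehicle animals. It rose by 1.35 ± 0.34 and 1.39 ± 0.30. With animals 3 and 1 left out it was at 0.26 (adjusted p = 0.61), and a dimmer probe set of Acss2 lay the other way, at -0.59 without the array labelled animal 3 and -0.48 with it. Me1 fell (-1.10 ± 0.15 and -0.83 ± 0.16).

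**Figure D2:**
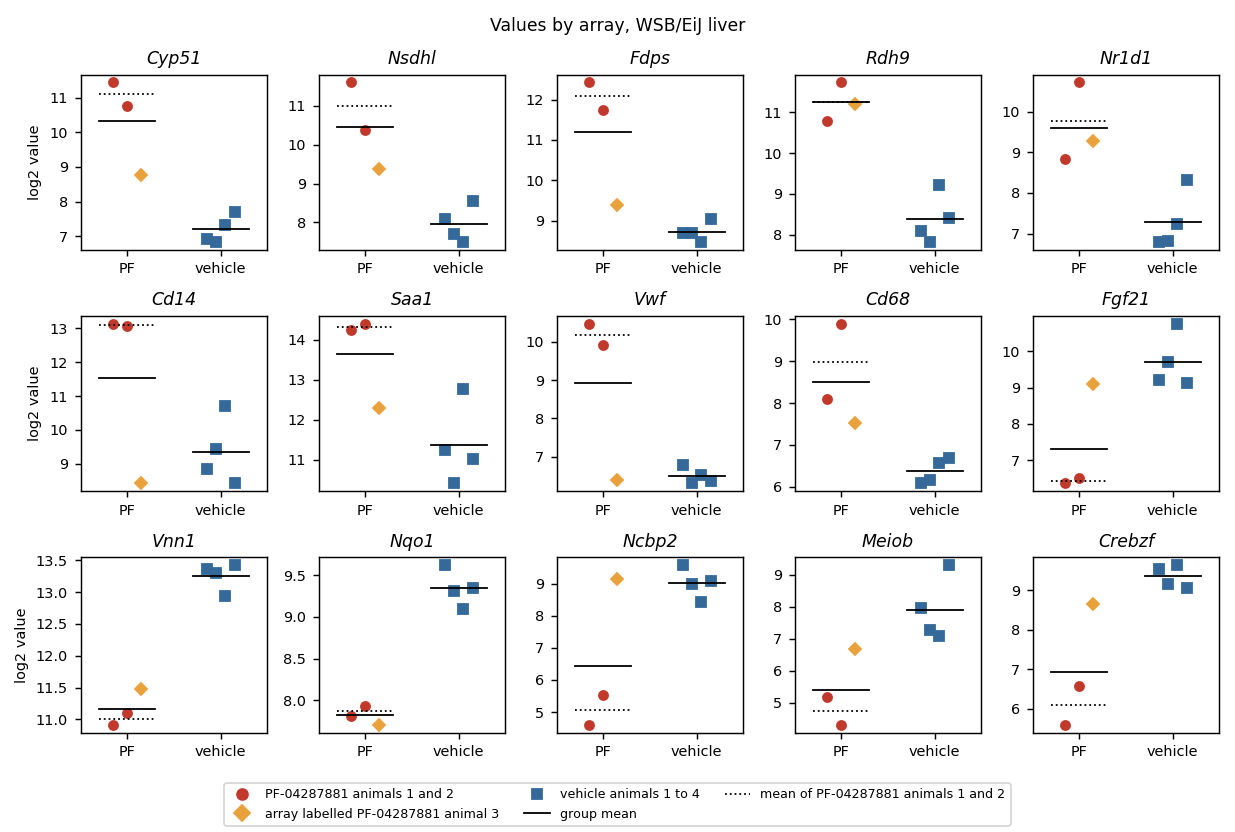
Log2 value of 15 genes in each WSB/EiJ array, PF-04287881 left and vehicle right in each panel, with solid lines at group means and dotted lines at the mean of PF-04287881 animals 1 and 2. With the array labelled animal 3 counted as a drug array, Cyp51, Nsdhl, Fdps, Cd68, Vnn1 and Nqo1 show no overlap between the groups. For Cd14, Saa1, Vwf, Fgf21 and Ncbp2 that array sits near or among the vehicle animals.

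Part of the genes of fatty acid oxidation and other PPAR alpha targets fell. Of 36 tested, 0 were called higher and 24 lower without the array labelled animal 3, with a median of -0.63, and 0 and 16 with it, with a median of -0.37; 15 were called in both fits. The lower calls are 66.7% and 44.4% of the list, beside 18.6% and 12.4% of all genes. Members ranged from -3.27 to 1.25 without that array. Fgf21, a fasting hormone of hepatocytes, had 6.37 and 6.50 in PF-04287881 animals 1 and 2 and 9.10 in the array labelled animal 3, against 9.22, 9.72, 10.76 and 9.14 in vehicle animals. Animals 1 and 2 were below every vehicle animal, and the array labelled animal 3 was just under the lowest of them. Fgf21 fell, with a difference of -3.27 ± 0.52 without that array (adjusted p = 2.77e-05) and -2.39 ± 0.56 with it (adjusted p = 0.00338). Retsat, the retinol saturase, had 10.85 and 10.72 in animals 1 and 2, and in the array labelled animal 3 13.70, above the vehicle range of 12.67 to 13.23. Its difference was -2.22 without that array and -1.25 with it. Eci1, an enoyl-CoA isomerase of mitochondrial oxidation, had 11.10 and 11.49 in animals 1 and 2 and 11.88 in the array labelled animal 3, against 12.76, 12.69, 12.40 and 12.73 in vehicle animals. It fell (-1.35 ± 0.14 and -1.15 ± 0.14). The acyl-CoA thioesterases Acot2 and Acot8 were at -1.30 and -1.22 without that array and at -1.43 and -0.85 with it. Acot2 lost its call with animals 3 and 1 left out (-1.01, adjusted p = 0.162). By list, animals 1 and 2 lay at -0.701 and -0.680 relative to the vehicle mean and the array labelled animal 3 at -0.0539, against -0.0393 to 0.0302 in vehicle animals.

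Outside that pathway, mitochondrial genes were followed in 2 lists. Of 58 nuclear-encoded subunits of the respiratory chain, 13 were called lower and 0 higher without the array labelled animal 3, and 5 and 0 with it, with medians of -0.11 and -0.02. These shares lie near or under those of all genes. The 5 were subunits of complex I: Ndufs7 (-0.56 and -0.38), Ndufa8 (-0.44 and -0.28), Ndufc1 (-0.38 and -0.36), Ndufs1 (-0.37 and -0.29) and Ndufv2 (-0.30 and -0.21), without and with that array. Of 70 mitochondrial ribosomal proteins, which translate the mitochondrial genome, 38 were called lower and 1 higher without the array labelled animal 3, and 27 and 0 with it, with medians of -0.27 and -0.20 and 26 shared calls. The mitochondrial ribosome list had 1.43% of its genes called higher and 54.3% lower without that array, beside 13.8% and 18.6% of all genes, and 0% and 38.6% with it, beside 6.91% and 12.4%. Mrps22 had 8.95 and 9.09 in animals 1 and 2 and 9.90 in the array labelled animal 3, against 10.18, 10.07, 9.68 and 10.12 in vehicle animals, so that the array labelled animal 3 lay inside the vehicle range. It fell, with a difference of -0.99 ± 0.09 without that array and -0.70 ± 0.14 with it. Mrpl14 fell (-0.999 ± 0.14 and -0.60 ± 0.19), Mrpl49 (-0.96 ± 0.14 and -0.63 ± 0.18), Mrpl39 (-0.68 ± 0.13 and -0.61 ± 0.12) and Mrpl1 (-0.62 ± 0.13 and -0.55 ± 0.11). Mrps15 fell (-0.69 ± 0.12 and -0.50 ± 0.13), with another bright probe set of the gene at 0.14 in both fits.

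Most proteasome subunits fell, by small amounts. Of 39 tested, 32 were called lower and 0 higher in either fit, 31 of them in both, with medians of -0.45 without the array labelled animal 3 and -0.40 with it. The lower calls are 82.1% of the list in either fit, beside 18.6% and 12.4% of all genes. By list, PF-04287881 animals 1 and 2 lay at -0.522 and -0.359 and the array labelled animal 3 at -0.274, against -0.0941 to 0.0715 in vehicle animals. NZW/LacJ vehicle arrays lay at -0.317 to -0.266. Among the core ring subunits, Psma1 had 9.98 and 10.88 in animals 1 and 2 and 10.71 in the array labelled animal 3, against 11.65, 11.61, 11.26 and 11.34 in vehicle animals. It fell, with a difference of -1.03 ± 0.17 without that array (adjusted p = 3.22e-05) and -0.94 ± 0.15 with it. Psma4 had 11.94 and 12.01 in animals 1 and 2 and 12.49 in the array labelled animal 3, against 12.78, 12.82, 12.81 and 12.55 in vehicle animals, with every drug array below every vehicle array, and fell (-0.77 ± 0.07 and -0.60 ± 0.09). Psmb3 fell (-0.83 ± 0.08 and -0.63 ± 0.10), and Psma3 (-0.66 ± 0.13 and -0.70 ± 0.11). In the regulatory cap, the ATPase subunit Psmc2 fell (-0.78 ± 0.11 and -0.67 ± 0.10) and the deubiquitinase subunit Psmd14 (-0.90 ± 0.14 and -0.73 ± 0.14). Psmd7 was called with the array labelled animal 3 alone (-0.36, adjusted p = 0.0199; -0.31 without it, adjusted p = 0.0507), and the alternative activator Psme4 without it alone (-0.24, adjusted p = 0.013; -0.09 with it, adjusted p = 0.471). The antioxidant response element TGACNNNGC, on either strand, was found in 6 of the 33 subunits with a promoter entry, or in Psmb5, Psmb6, Psmc6, Psmd12, Psmd9 and Psme4, against 14.0% of genes. The fall in WSB/EiJ exceeded the mean of the other strains for 26 of the 39 subunits without the array labelled animal 3 and for 19 with it, where the share over all genes was 19.6% and 13.9%.

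**Figure D3:**
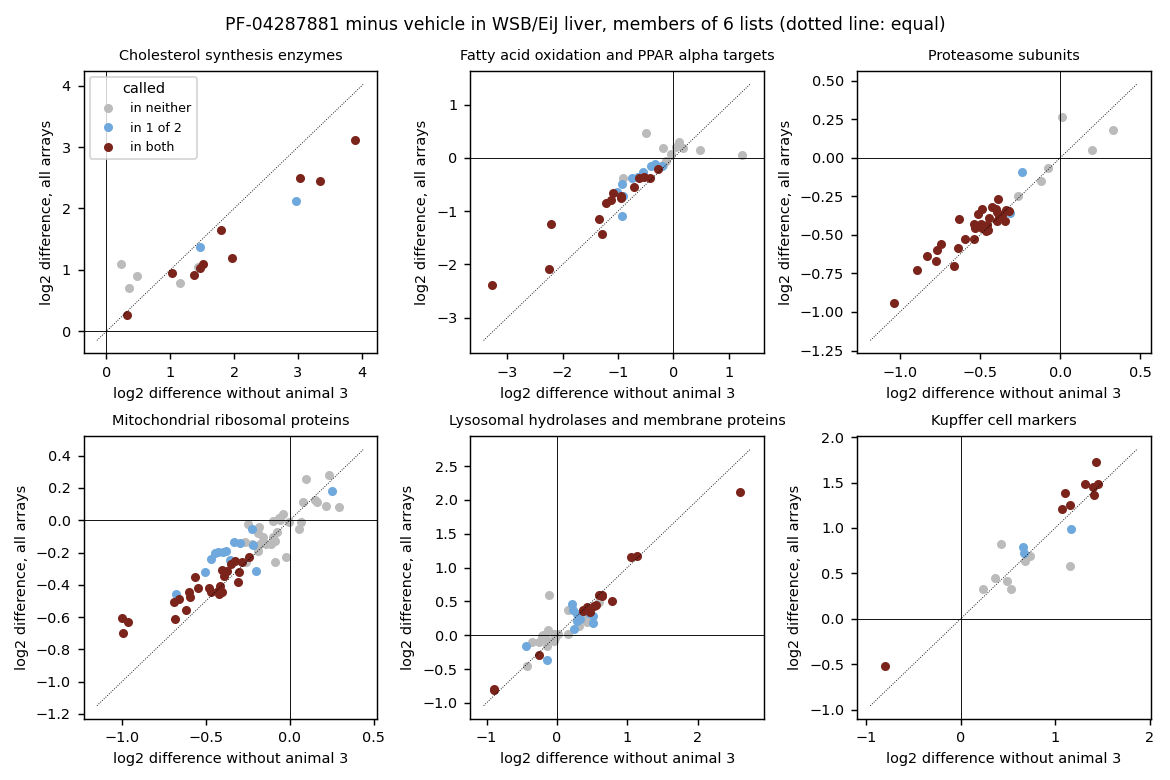
Log2 difference (PF-04287881 minus vehicle) of each tested member of 6 lists, without the array labelled animal 3 across and with it up, coloured by whether the gene was called in neither, 1 or both fits. Proteasome members cluster between -1.03 and 0.33 across, close to the line of equal values, while several cholesterol enzymes and PPAR alpha targets are larger without that array.

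Part of the chaperones fell as well. Of 28 chaperones and unfolded protein response genes of the endoplasmic reticulum, 15 were called lower and 2 higher without the array labelled animal 3, and 10 and 1 with it, with medians of -0.31 and -0.26. The endoplasmic reticulum list had 7.14% of its genes called higher and 53.6% lower without that array, beside 13.8% and 18.6% of all genes, and 3.57% and 35.7% with it, beside 6.91% and 12.4%. Manf, a secreted factor induced by misfolded protein, had 9.96 and 9.64 in PF-04287881 animals 1 and 2 and 11.30 in the array labelled animal 3, against 11.75, 10.95, 11.65 and 11.10 in vehicle animals. It fell (-1.56 ± 0.32 and -1.06 ± 0.33). Creld2, another such factor, had 9.25 and 8.98 in animals 1 and 2 and 10.60 in the array labelled animal 3, against 11.21, 10.37, 11.29 and 9.82 in vehicle animals. It fell (-1.56 ± 0.38 and -1.06 ± 0.38). Derl3, of the degradation channel, fell (-1.48 ± 0.29 and -1.33 ± 0.26), the disulfide isomerase Pdia4 (-1.35 ± 0.20 and -0.98 ± 0.22), and Edem1 (-0.82 ± 0.18 and -0.64 ± 0.17), with a second bright probe set of Edem1 at 0.21 and 0.32. The exception was Nucb2, a calcium-binding protein, which rose by 0.89 ± 0.25 and 0.69 ± 0.23. Of 20 heat shock proteins and co-chaperones, 10 were called lower and 2 higher without that array, and 7 and 1 with it. The heat shock list had 10% of its genes called higher and 50% lower without that array, beside 13.8% and 18.6% of all genes, and 5.00% and 35.0% with it, beside 6.91% and 12.4%. Dnajb4 fell (-1.75 ± 0.24 and -1.19 ± 0.29), the organising protein Stip1 (-0.83 ± 0.19 and -0.74 ± 0.17) and Hspa4l (-0.79 ± 0.24 and -0.77 ± 0.21). Mitochondrial Hspa9 (-0.23 and -0.26) and Ahsa1 (-0.33 and -0.43) passed by little in both fits, and Hspa9 lost its call in 5 and Ahsa1 in 4 of the 6 fits that left out 1 further array. Beyond the array labelled animal 3, leaving out 1 more array ended some calls: Hspa4l lost its call without PF-04287881 animal 1 (-0.34, adjusted p = 0.469). Stip1 likewise lost its call without PF-04287881 animal 1 (-0.64, adjusted p = 0.0799). Nucb2 likewise lost its call without PF-04287881 animal 2 (0.31, adjusted p = 0.445). Dnaja2 was higher (0.28 and 0.30), but 1 of its other bright probe sets stood at -0.41 and -0.09, and it lost its call in 3 of those 6 fits.

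Of 22 genes of the integrated stress response, 8 were called higher and 3 lower without the array labelled animal 3, and 2 and 3 with it. The stress response list had 36.4% of its genes called higher and 13.6% lower without that array, beside 13.8% and 18.6% of all genes, and 9.09% and 13.6% with it, beside 6.91% and 12.4%. The 3 lower in both were Fgf21, Atf5, a transcription factor of that response (-1.45 ± 0.20 and -1.14 ± 0.20), and Shmt2, of mitochondrial one-carbon metabolism (-1.02 ± 0.16 and -0.62 ± 0.21). Eif4ebp1, a translation repressor, rose by 1.39 ± 0.19 and 0.92 ± 0.24, and the amino acid transporter Slc7a5 by 0.56 ± 0.15 and 0.50 ± 0.13. Vehicle animals were widely spread on this list, from -0.574 in animal 4 to 0.631 in animal 3, and PF-04287881 animals 1 and 2, at 0.389 and 0.203, lay between them, as did the array labelled animal 3 at -0.457. Of 27 genes of the NRF2 response, 9 were called lower and 3 higher without that array, and 7 and 2 with it. The NRF2 list had 11.1% of its genes called higher and 33.3% lower without that array, beside 13.8% and 18.6% of all genes, and 7.41% and 25.9% with it, beside 6.91% and 12.4%. When 1 further array was left out beside the array labelled animal 3, Slc7a5 lost its call without PF-04287881 animal 1 (0.29, adjusted p = 0.308). Besides Nqo1, Gsr, the glutathione reductase, had 10.03 and 10.14 in animals 1 and 2 and 10.75 in the array labelled animal 3, against 11.34, 11.34, 11.03 and 11.09 in vehicle animals. It fell (-1.11 ± 0.11 and -0.89 ± 0.13). Gclm, of glutathione synthesis, fell (-0.68 ± 0.13 and -0.46 ± 0.14), and Gstp1, a glutathione transferase, (-0.79 ± 0.21 and -0.66 ± 0.19). Cbr3, a carbonyl reductase, rose by 0.69 ± 0.13 and 0.50 ± 0.14. Of these calls, with the array labelled animal 3 and 1 other left out, Gstp1 lost its call without PF-04287881 animal 1 (-0.41, adjusted p = 0.271). Nfe2l2, which encodes NRF2, was at -1.92 and -1.20 on its brightest probe set and at 1.85 and 2.00 on its other bright one, so no direction is given for the gene.

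Part of the markers of Kupffer cells rose. Of 20 tested, 9 were called higher and 1 lower without the array labelled animal 3, and 10 and 1 with it, with medians of 0.90 and 0.81 and 8 shared rises. The Kupffer cell list had 45.0% of its genes called higher and 5.00% lower without that array, beside 13.8% and 18.6% of all genes, and 50% and 5.00% with it, beside 6.91% and 12.4%. By list, PF-04287881 animals 1 and 2 lay at 0.836 and 0.832 and the array labelled animal 3 at 0.971, against -0.229 to 0.283 in vehicle animals; NZW/LacJ vehicle arrays lay at 0.718 to 1.10, so the high value of that array was also that of untreated NZW/LacJ liver. Vsig4, a complement receptor of Kupffer cells, had 9.67 and 9.20 in animals 1 and 2 and 9.51 in the array labelled animal 3, against 8.03, 7.68, 8.28 and 7.93 in vehicle animals, with no overlap. It rose by 1.46 ± 0.32 without that array (adjusted p = 0.00102) and 1.48 ± 0.28 with it. The complement component C1qb had 9.63 and 9.17 in animals 1 and 2 and 9.25 in the array labelled animal 3, against 7.95, 7.58, 8.47 and 7.95 in vehicle animals. It rose by 1.42 ± 0.34 and 1.37 ± 0.30. C1qa rose by 1.40 ± 0.37 and 1.45 ± 0.32, the lectin Clec4f, specific to Kupffer cells, by 1.16 ± 0.32 and 1.25 ± 0.28, the scavenger protein Cd5l by 1.32 ± 0.38 and 1.48 ± 0.34, and the phosphatidylserine receptor Timd4 by 1.43 ± 0.43 and 1.72 ± 0.39. The pan-macrophage marker Adgre1, named after its values were seen because it defines macrophages, was at 0.24 (adjusted p = 0.523) and 0.33 (adjusted p = 0.327). Fits that left out the array labelled animal 3 and 1 other array changed the following: C1qa lost its call without PF-04287881 animal 1 (1.16, adjusted p = 0.102). C1qb likewise lost its call without PF-04287881 animal 1 (1.19, adjusted p = 0.0694). Clec4f likewise lost its call without PF-04287881 animal 1 (1.01, adjusted p = 0.0971). Cd5l likewise lost its call without PF-04287881 animal 1 (1.37, adjusted p = 0.0611) or PF-04287881 animal 2 (1.27, adjusted p = 0.0646). Timd4 likewise lost its call without PF-04287881 animal 1 (1.55, adjusted p = 0.0582) or PF-04287881 animal 2 (1.31, adjusted p = 0.0872). The 1 lower call in both fits was the iron exporter Slc40a1, named because of this count after its values were seen (-0.80 and -0.52). Tests of the difference from the mean of the other strains called 1 marker higher and 1 lower without the array labelled animal 3, and 1 and 0 with it. Over all genes, 11.4% were higher and 19.6% lower without that array, and 5.92% and 13.9% with it.

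Of 19 markers of monocytes and lipid-associated macrophages, 4 were called higher and 0 lower without the array labelled animal 3 and with it, 3 of them in both fits. The monocyte and macrophage list had 21.1% of its genes called higher and 0% lower without that array, beside 13.8% and 18.6% of all genes, and 21.1% and 0% with it, beside 6.91% and 12.4%. Cd68, a lysosomal glycoprotein of macrophages, had 8.09 in animal 1 and 9.88 in animal 2, and 7.53 in the array labelled animal 3, against 6.09, 6.18, 6.58 and 6.68 in vehicle animals. All arrays labelled as drug were above all vehicle arrays, and Cd68 rose by 2.61 ± 0.46 (adjusted p = 0.000103) and 2.12 ± 0.44 (adjusted p = 0.00126). NZW/LacJ vehicle arrays ran from 7.12 to 7.69, a range that holds the array labelled animal 3. The tetraspanin Cd9 rose by 1.71 ± 0.35 and 1.09 ± 0.38, and lysozyme Lyz1 by 1.22 ± 0.46 and 1.30 ± 0.40. Lgals3, a galectin, was called without the array labelled animal 3 alone (1.26, adjusted p = 0.0485; 1.18 with it, adjusted p = 0.0521), and Tyrobp, a macrophage adaptor, with it alone (0.99, adjusted p = 0.0427; 0.70 without it, adjusted p = 0.158). Of 7 genes of MHC class II presentation, 3 were called higher without that array and 4 with it. The class II list had 42.9% of its genes called higher and 0% lower without that array, beside 13.8% and 18.6% of all genes, and 57.1% and 0% with it, beside 6.91% and 12.4%. By list, animals 1 and 2 lay at 0.816 and 0.563 and the array labelled animal 3 at 1.23, against -0.21 to 0.355 in vehicle animals. NZW/LacJ vehicle arrays lay at 0.916 to 1.33, so the value of that array was also that of untreated NZW/LacJ liver. H2-Ab1 had 8.59 and 8.34 in animals 1 and 2 and 8.57 in the array labelled animal 3, against 7.21, 6.60, 6.69 and 7.81 in vehicle animals. It rose by 1.39 ± 0.46 and 1.42 ± 0.40, with other bright probe sets of H2-Ab1 at 0.396 and 0.495 without the array labelled animal 3 and 0.482 and 0.638 with it. The invariant chain Cd74 rose by 1.14 ± 0.42 and 1.28 ± 0.37, and the protease Ctss by 1.05 ± 0.38 and 1.15 ± 0.33; H2-Aa was called with that array alone (1.11, adjusted p = 0.0435; 1.05 without it, adjusted p = 0.0695). Beyond the array labelled animal 3, leaving out 1 more array ended some calls: Lyz1 lost its call without PF-04287881 animal 1 (1.29, adjusted p = 0.155) or PF-04287881 animal 2 (1.14, adjusted p = 0.176) or vehicle animal 2 (1.28, adjusted p = 0.0504) or vehicle animal 3 (0.84, adjusted p = 0.139). H2-Ab1 likewise lost its call without PF-04287881 animal 1 (1.26, adjusted p = 0.16) or PF-04287881 animal 2 (1.52, adjusted p = 0.0646) or vehicle animal 2 (1.23, adjusted p = 0.0529). Cd74 likewise lost its call without PF-04287881 animal 1 (0.94, adjusted p = 0.271) or PF-04287881 animal 2 (1.34, adjusted p = 0.0761) or vehicle animal 2 (1.10, adjusted p = 0.0675) or vehicle animal 3 (0.98, adjusted p = 0.0877). Ctss likewise lost its call without PF-04287881 animal 1 (0.90, adjusted p = 0.235) or PF-04287881 animal 2 (1.20, adjusted p = 0.0789) or vehicle animal 1 (1.01, adjusted p = 0.0666) or vehicle animal 2 (0.94, adjusted p = 0.0783).

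Lysosomal genes held calls in both directions. Of 46 hydrolases and membrane proteins, 19 were called higher and 4 lower without the array labelled animal 3, and 16 and 4 with it, with medians of 0.26 and 0.23; 13 rises and 3 falls were shared. The lysosomal list had 41.3% of its genes called higher and 8.70% lower without that array, beside 13.8% and 18.6% of all genes, and 34.8% and 8.70% with it, beside 6.91% and 12.4%. Galns, a keratan sulfate sulfatase, had 7.61 and 7.48 in animals 1 and 2 and 7.63 in the array labelled animal 3, against 6.32, 6.16, 6.49 and 6.67 in vehicle animals. It rose by 1.14 ± 0.13 (adjusted p = 5.75e-07) and 1.16 ± 0.12 (adjusted p = 6.02e-07). Ids, the iduronate sulfatase of another mucopolysaccharide, went the other way with 8.53 and 8.85 in animals 1 and 2 and 8.94 in the array labelled animal 3, against 9.84, 9.59, 9.44 and 9.43 in vehicle animals. It fell (-0.89 ± 0.12 and -0.80 ± 0.11), with another bright probe set of Ids at -0.157 and -0.145. Acp2, lysosomal acid phosphatase, had 9.34 and 9.40 in animals 1 and 2 and 9.67 in the array labelled animal 3, against 10.20, 10.22, 10.19 and 10.44 in vehicle animals. It fell (-0.89 ± 0.07 and -0.79 ± 0.07). For Ids and Acp2 every array labelled as drug was below every vehicle array, and the array labelled animal 3 lay within the NZW/LacJ vehicle range. The sulfatide-degrading Arsa rose by 0.59 ± 0.21 and 0.60 ± 0.19, though it lost its call in 5 of the 6 fits that left out 1 further array. Among 23 genes of phospholipid breakdown, 5 were called higher and 4 lower without the array labelled animal 3, and 4 and 1 with it. The phospholipid list had 21.7% of its genes called higher and 17.4% lower without that array, beside 13.8% and 18.6% of all genes, and 17.4% and 4.35% with it, beside 6.91% and 12.4%. The acid ceramidase Asah1 (0.55 ± 0.13 and 0.44 ± 0.12), the acid sphingomyelinase Smpd1 (0.47 ± 0.10 and 0.34 ± 0.10) and the lipoprotein-associated phospholipase Pla2g7 (1.14 ± 0.33 and 0.94 ± 0.30) rose. The calcium-independent phospholipase Pla2g6 fell (-0.73 ± 0.16 and -0.64 ± 0.14), with other bright probe sets at -1.69 and 0.01 without the array labelled animal 3 and -1.22 and 0.06 with it. When 1 further array was left out beside the array labelled animal 3, Pla2g7 lost its call without PF-04287881 animal 1 (1.18, adjusted p = 0.064) or PF-04287881 animal 2 (1.10, adjusted p = 0.0629). Of 17 subunits of the vacuolar proton ATPase, which acidifies lysosomes, 9 were called higher and 1 lower without that array and 0 and 0 with it. The proton ATPase list had 52.9% of its genes called higher and 5.88% lower without that array, beside 13.8% and 18.6% of all genes, and 0% and 0% with it, beside 6.91% and 12.4%. By list, animals 1 and 2 were at 0.171 and 0.361 and the array labelled animal 3 at -0.179, against -0.033 to 0.0474 in vehicle animals. Chosen after their values were seen, Atp6v0b stood at 0.76 without that array and 0.40 with it (adjusted p = 0.00179 and 0.171). Atp6v1a stood at -0.53 and -0.30 (adjusted p = 0.0205 and 0.235).

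Of 37 genes of autophagy and lysosomal nutrient sensing, 13 were called higher and 4 lower without the array labelled animal 3, and 4 and 2 with it. The autophagy list had 35.1% of its genes called higher and 10.8% lower without that array, beside 13.8% and 18.6% of all genes, and 10.8% and 5.41% with it, beside 6.91% and 12.4%. Uvrag, of the autophagosome maturation complex, had 10.77 and 10.41 in animals 1 and 2 and 9.99 in the array labelled animal 3, against 9.11, 9.48, 9.68 and 9.23 in vehicle animals, with no overlap. It rose by 1.22 ± 0.13 and 1.02 ± 0.13. The folliculin partner Fnip1 rose by 1.25 ± 0.16 and 0.84 ± 0.20, Atg12 of the conjugation system by 0.70 ± 0.08 and 0.48 ± 0.10, and the Rag GTPase Rragc by 0.56 ± 0.13 and 0.42 ± 0.12. Lamtor2, of the lysosomal anchor of the Rag GTPases, fell (-0.76 ± 0.15 and -0.51 ± 0.16). The kinase Mtor was lower on its brightest probe set (-0.48 and -0.44) and higher on another bright one (0.52 and 0.43), so no direction is given for it.

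**Figure D4:**
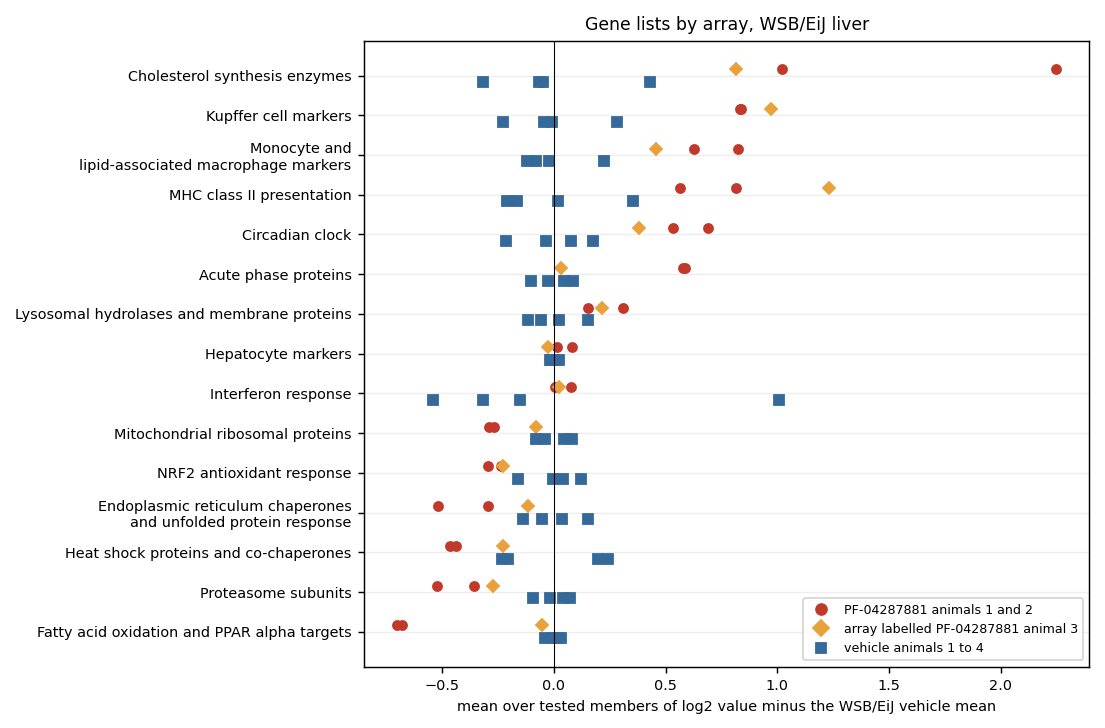
Mean of log2 value minus the WSB/EiJ vehicle mean over the tested members of 15 lists in each array, PF-04287881 above vehicle in each row. PF-04287881 animals 1 and 2 lie at -0.701 and -0.680 for fatty acid oxidation and at 2.25 and 1.02 for cholesterol synthesis, hepatocyte markers stay within -0.0257 to 0.0818 in all 7 arrays, and vehicle animal 4 is at 1.01 for interferon response.

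Some acute phase proteins, made by hepatocytes under cytokine signals, rose. Of 31 tested, 9 were called higher and 0 lower without the array labelled animal 3, and 8 and 0 with it, 7 of them in both. The acute phase list had 29.0% of its genes called higher and 0% lower without that array, beside 13.8% and 18.6% of all genes, and 25.8% and 0% with it, beside 6.91% and 12.4%. The list median was 0.17 without that array and 0.02 with it, and ranged from -0.00117 to 0.229 over the alternatives tried. Saa1, serum amyloid A, had 14.23 and 14.39 in animals 1 and 2 and 12.29 in the array labelled animal 3, against 11.25, 10.42, 12.76 and 11.01 in vehicle animals. Animals 1 and 2 were above all vehicle animals, and the array labelled animal 3 was below vehicle animal 3. Saa1 rose by 2.95 ± 0.71 without that array (adjusted p = 0.00227) and 2.28 ± 0.67 with it (adjusted p = 0.0175), and its close copy Saa2, whose transcripts the probe sets may share, by 2.99 ± 0.66 and 2.09 ± 0.66. Socs3, the feedback inhibitor of cytokine signalling, had 10.26 and 10.90 in animals 1 and 2 and 7.90 in the array labelled animal 3, against 7.62, 8.27, 8.17 and 7.61 in vehicle animals. It rose by 2.67 ± 0.35 and 1.77 ± 0.45. The orosomucoids Orm1 (1.20 ± 0.25 and 1.15 ± 0.22) and Orm2 (1.62 ± 0.36 and 1.37 ± 0.33) rose. The terminal complement component C9 rose by 1.68 ± 0.29 and 2.31 ± 0.34, and here the array labelled animal 3 was the highest, at 12.58. NZW/LacJ vehicle arrays ran from 12.42 to 12.61 for C9, a range that holds that array. Cfb was called with that array alone (0.30, adjusted p = 0.0341; 0.23 without it, adjusted p = 0.108), and Steap4 without it alone (0.98, adjusted p = 0.000844; 0.57 with it, adjusted p = 0.0892). Serpina3n stood at 0.41 without that array (adjusted p = 0.0152) and at -0.08 with it (adjusted p = 0.827).

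Of 25 genes of inflammation and innate sensing, 8 were called higher and 2 lower without the array labelled animal 3, and 4 and 1 with it. The inflammation list had 32.0% of its genes called higher and 8.00% lower without that array, beside 13.8% and 18.6% of all genes, and 16% and 4.00% with it, beside 6.91% and 12.4%. Cd14, the endotoxin co-receptor, had 13.13 and 13.08 in animals 1 and 2 and 8.44 in the array labelled animal 3, against 8.85, 9.44, 10.72 and 8.43 in vehicle animals. The array labelled animal 3 was at the level of the lowest vehicle animals, and the difference was 3.74 ± 0.36 without it (adjusted p = 3.38e-08), or 13.4-fold, and 2.19 ± 0.65 with it (adjusted p = 0.0192). The adhesion molecule Vcam1 rose by 1.89 ± 0.40 and 1.29 ± 0.42 and the cytokine Il18 by 0.93 ± 0.21 and 1.08 ± 0.19. Other bright probe sets of Vcam1 were at 0.871 and 0.365 without the array labelled animal 3 and 0.609 and 0.316 with it. Ccl5, a chemokine, rose by 0.49 ± 0.19 and 0.50 ± 0.16, and it lost its call in 5 of the 6 fits that left out 1 further array. Il1rn, the antagonist of the interleukin 1 receptor, fell (-1.52 ± 0.39 and -1.82 ± 0.36). Of these calls, with the array labelled animal 3 and 1 other left out, Il1rn lost its call without PF-04287881 animal 1 (-1.03, adjusted p = 0.163). Interferon response genes had no common direction: of 36, 3 were called higher and 5 lower without that array, and 1 and 5 with it. The interferon list had 8.33% of its genes called higher and 13.9% lower without that array, beside 13.8% and 18.6% of all genes, and 2.78% and 13.9% with it, beside 6.91% and 12.4%. Vehicle animal 4 stood far above the others on this list, at 1.01 against -0.542 to -0.152 in vehicle animals 1 to 3, while PF-04287881 animals 1 and 2 lay at 0.0749 and 0.0043 and the array labelled animal 3 at 0.023. Rsad2, the antiviral enzyme viperin, had 11.10 and 10.27 in animals 1 and 2 and 9.83 in the array labelled animal 3, against 8.68, 8.66, 9.19 and 10.36 in vehicle animals 1 to 4. It rose by 1.47 ± 0.42 and 1.18 ± 0.38, or by 1.85 with vehicle animal 4 also left out. On other bright probe sets Rsad2 was at 0.653 and 0.795 without the array labelled animal 3 and 0.743 and 0.943 with it. It lost its call with PF-04287881 animals 3 and 1 left out (1.05, adjusted p = 0.194). The interferon-inducible GTPase Iigp1 fell (-1.75 ± 0.21 and -1.17 ± 0.28), the signal transducer Stat2 (-1.30 ± 0.29 and -0.99 ± 0.28) and the exonuclease Isg20 (-1.04 ± 0.22 and -0.69 ± 0.23). Stat2 stood at -0.465 and -0.317 on another bright probe set.

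Part of the clock genes rose. Of 18, 9 were called higher and 2 lower without the array labelled animal 3, and 7 and 2 with it, with medians of 0.78 and 0.51. The clock list had 50% of its genes called higher and 11.1% lower without that array, beside 13.8% and 18.6% of all genes, and 38.9% and 11.1% with it, beside 6.91% and 12.4%. Nr1d1, the repressor REV-ERB alpha, had 8.84 and 10.72 in animals 1 and 2 and 9.28 in the array labelled animal 3, against 6.80, 6.81, 7.23 and 8.33 in vehicle animals. Every array labelled as drug was above every vehicle array, and Nr1d1 rose by 2.49 ± 0.43 (adjusted p = 7.82e-05) and 2.32 ± 0.38 (adjusted p = 0.000134). The array labelled animal 3 lay within the NZW/LacJ vehicle range of 9.03 to 9.35. Its paralogue Nr1d2 rose by 1.10 ± 0.27 and 1.11 ± 0.24, the repressor Cry2 by 1.59 ± 0.24 and 1.19 ± 0.25, Bhlhe40 by 1.63 ± 0.32 and 1.17 ± 0.33, the output factor Tef by 1.06 ± 0.28 and 1.21 ± 0.25 and the deubiquitinase Usp2 by 1.09 ± 0.33 and 1.07 ± 0.29. Tef stood at 0.338 and 0.618 on another bright probe set. Fits that left out the array labelled animal 3 and 1 other array changed the following: Nr1d2 lost its call without PF-04287881 animal 1 (0.99, adjusted p = 0.0586). Tef likewise lost its call without PF-04287881 animal 1 (0.48, adjusted p = 0.339). Usp2 likewise lost its call without PF-04287881 animal 1 (0.75, adjusted p = 0.248). The hours of the day at which the animals were killed are not given in the sources used here, so the part of sampling time was not tested. The E-box CACGTG was found in Ciart, Cry1, Per1 and Tef, 4 of the 16 with a promoter entry, against 8.09% of genes.

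Of 22 p53 targets and apoptosis genes, 11 were called higher and 1 lower without the array labelled animal 3, and 4 and 0 with it. The p53 and apoptosis list had 50% of its genes called higher and 4.55% lower without that array, beside 13.8% and 18.6% of all genes, and 18.2% and 0% with it, beside 6.91% and 12.4%. Bcl2l1, which encodes the survival protein BCL-XL, had 11.71 and 11.67 in animals 1 and 2 and 8.83 in the array labelled animal 3, against 9.16, 9.71, 9.68 and 8.89 in vehicle animals. The array labelled animal 3 was below every vehicle animal, and the difference was 2.33 ± 0.15 without it (adjusted p = 3.84e-11) and 1.38 ± 0.37 with it (adjusted p = 0.0102). The BH3-only genes Pmaip1 (1.14 ± 0.32 and 0.88 ± 0.29) and Bbc3 (0.60 ± 0.16 and 0.44 ± 0.15) rose, and so did the initiator caspase Casp9 (0.39 ± 0.13 and 0.34 ± 0.11). By list, animals 1 and 2 lay at 0.703 and 0.672 and the array labelled animal 3 at -0.707, against -0.352 to 0.271 in vehicle animals; NZW/LacJ vehicle arrays lay at -0.758 to -0.679. Beyond the array labelled animal 3, leaving out 1 more array ended some calls: Pmaip1 lost its call without PF-04287881 animal 1 (0.94, adjusted p = 0.12). Bbc3 likewise lost its call without PF-04287881 animal 2 (0.34, adjusted p = 0.215). Casp9 likewise lost its call without PF-04287881 animal 1 (0.39, adjusted p = 0.118) or PF-04287881 animal 2 (0.39, adjusted p = 0.0911) or vehicle animal 1 (0.29, adjusted p = 0.0799). Of 23 cell cycle genes, 3 were called higher and 1 lower without that array, and 3 and 2 with it. The cell cycle list had 13.0% of its genes called higher and 4.35% lower without that array, beside 13.8% and 18.6% of all genes, and 13.0% and 8.70% with it, beside 6.91% and 12.4%. The cyclin Ccne1 (0.55 ± 0.12 and 0.44 ± 0.11) and the kinase Cdk1 (0.71 ± 0.18 and 0.64 ± 0.16) rose. When 1 further array was left out beside the array labelled animal 3, Ccne1 lost its call without PF-04287881 animal 1 (0.39, adjusted p = 0.0678). Cdk1 likewise lost its call without PF-04287881 animal 1 (0.47, adjusted p = 0.163). The G1 cyclin Ccnd1 had 9.54 and 8.89 in animals 1 and 2 and 9.69 in the array labelled animal 3, against 11.05, 10.48, 9.30 and 11.81 in vehicle animals, with vehicle animal 3 among the drug arrays. It fell (-1.44 ± 0.51 and -1.29 ± 0.45), and this call was lost without vehicle animal 4 (-1.06, adjusted p = 0.105), vehicle animal 1 (-1.31, adjusted p = 0.075), PF-04287881 animal 1 (-1.77, adjusted p = 0.0691) or animal 2 (-1.12, adjusted p = 0.232), in each case with the array labelled animal 3 also left out.

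Postn, Col4a1 and Col1a2 rose among matrix genes. Of 24 matrix genes, 6 were called higher and 0 lower without the array labelled animal 3, and 3 and 0 with it. The matrix list had 25.0% of its genes called higher and 0% lower without that array, beside 13.8% and 18.6% of all genes, and 12.5% and 0% with it, beside 6.91% and 12.4%. Besides Postn, the basement membrane collagen Col4a1 had 10.86 and 10.56 in animals 1 and 2 and 8.53 in the array labelled animal 3, against 8.60, 8.60, 9.05 and 8.40 in vehicle animals. It rose by 2.05 ± 0.38 and 1.32 ± 0.43. Col1a2 of fibrillar collagen rose by 0.93 ± 0.33 and 0.88 ± 0.29, with another bright probe set at 0.224 and 0.238. Of these calls, with the array labelled animal 3 and 1 other left out, Col1a2 lost its call without PF-04287881 animal 1 (1.04, adjusted p = 0.0982) or PF-04287881 animal 2 (0.81, adjusted p = 0.175) or vehicle animal 3 (0.81, adjusted p = 0.0667). Of 17 stellate cell and fibroblast markers, 2 were called higher without the array labelled animal 3 and 3 with it, 1 of them in both. The stellate cell list had 11.8% of its genes called higher and 0% lower without that array, beside 13.8% and 18.6% of all genes, and 17.6% and 0% with it, beside 6.91% and 12.4%. The share without that array lies under that of all genes. Vwf, the von Willebrand factor of endothelium and platelets, had 10.47 and 9.90 in animals 1 and 2 and 6.39 in the array labelled animal 3, against 6.77, 6.31, 6.52 and 6.37 in vehicle animals. It rose by 3.69 ± 0.25 without that array (adjusted p = 1.07e-10) and 2.43 ± 0.51 with it (adjusted p = 0.00138). The 18 sinusoidal endothelial markers had 1 higher and 3 lower call without that array and 1 and 2 with it. The sinusoidal endothelial list had 5.56% of its genes called higher and 16.7% lower without that array, beside 13.8% and 18.6% of all genes, and 5.56% and 11.1% with it, beside 6.91% and 12.4%. Lyve1, a hyaluronan receptor of these cells, had 8.43 and 9.46 in animals 1 and 2 and 8.53 in the array labelled animal 3, against 7.62, 7.83, 8.10 and 4.97 in vehicle animals, where vehicle animal 4 was far below the rest. It rose by 1.81 ± 0.58 and 1.68 ± 0.51, by 1.09 with vehicle animal 4 also left out (adjusted p = 0.0497), and lost its call with animals 3 and 2 left out (1.30, adjusted p = 0.214). On another bright probe set Lyve1 was at 0.734 and 0.72. Oit3 fell (-0.91 ± 0.26 and -0.76 ± 0.23). Fits that left out the array labelled animal 3 and 1 other array changed the following: Oit3 lost its call without PF-04287881 animal 1 (-0.36, adjusted p = 0.46). Markers of neutrophils (7) and B cells (7) had 0 calls in either fit, those of T and NK cells (8) 1 and 0 calls, and those of hepatocytes (17) 1 and 0. Their mean levels in animals 1 and 2 lay between -0.0636 for B cells and 0.181 for T and NK cells relative to the vehicle mean. S100a9 of neutrophils was at 0.67 without the array labelled animal 3 (adjusted p = 0.0893) and 0.58 with it (adjusted p = 0.128). Jchain of plasma cells was at -0.48 (adjusted p = 0.0682) and -0.37 (adjusted p = 0.147).

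Further lists covered hepatocyte metabolism outside these pathways. Of 37 genes of CAR and PXR drug metabolism, 6 were called higher and 3 lower without the array labelled animal 3, and 6 and 2 with it. The CAR and PXR list had 16.2% of its genes called higher and 8.11% lower without that array, beside 13.8% and 18.6% of all genes, and 16.2% and 5.41% with it, beside 6.91% and 12.4%. Cyp1a2 (0.90 ± 0.25 and 1.32 ± 0.26), Cyp2c54 (0.65 ± 0.18 and 0.89 ± 0.18) and Cyp2f2 (0.69 ± 0.20 and 0.99 ± 0.21), all drug-oxidising enzymes, rose, and in each the array labelled animal 3 was the highest. That array lay at 13.16, 13.56 and 13.98 in that order. NZW/LacJ vehicle arrays ran from 12.99 to 13.04, 13.57 to 13.78 and 13.84 to 14.00, so it also lay near untreated NZW/LacJ liver. PF-04287881 animal 2 was at 12.62 for Cyp2c54 and 12.72 for Cyp2f2, not above vehicle animal 4 at 12.62 and 13.02. Beyond the array labelled animal 3, leaving out 1 more array ended some calls: Cyp1a2 lost its call without PF-04287881 animal 1 (0.64, adjusted p = 0.175). Cyp2c54 likewise lost its call without PF-04287881 animal 1 (0.44, adjusted p = 0.199). Cyp2f2 likewise lost its call without PF-04287881 animal 1 (0.33, adjusted p = 0.393). The nuclear receptor CAR, Nr1i3, had 9.60 and 9.77 in animals 1 and 2 and 11.47 in the array labelled animal 3, against 11.03, 10.90, 10.88 and 11.18 in vehicle animals, and was at -1.31 ± 0.12 without that array and -0.72 ± 0.24 with it. Ugt2b35, a glucuronosyltransferase, fell (-1.69 ± 0.14 and -1.13 ± 0.24), and Ugt2b37 had 8.27 and 9.35 in animals 1 and 2 and 9.88 in the array labelled animal 3, against 5.94, 6.24, 5.71 and 8.78 in vehicle animals. It rose by 2.14 ± 0.70 and 2.50 ± 0.62. The genes of this family are near copies, so their probe sets may share signal, and Ugt2b37 lost its call with animals 3 and 2 left out (1.60, adjusted p = 0.203) or with the array labelled animal 3 and vehicle animal 1 left out (1.90, adjusted p = 0.056). Of 24 bile acid genes, 2 were called higher and 5 lower without the array labelled animal 3, and 2 and 2 with it. The bile acid list had 8.33% of its genes called higher and 20.8% lower without that array, beside 13.8% and 18.6% of all genes, and 8.33% and 8.33% with it, beside 6.91% and 12.4%. In neither direction does the list stand far from all genes. The uptake transporter Slco1a1 rose by 1.63 ± 0.41 and 2.18 ± 0.41 and the synthesis enzymes Hsd3b7 (-0.79 and -0.56) and Acox2 (-0.88 and -0.78) fell. For Slco1a1 the array labelled animal 3, at 12.13, lay within the NZW/LacJ vehicle range of 12.02 to 12.42. Of 26 genes of glucose metabolism, 4 were called higher and 9 lower without that array and 1 and 4 with it. The glucose list had 15.4% of its genes called higher and 34.6% lower without that array, beside 13.8% and 18.6% of all genes, and 3.85% and 15.4% with it, beside 6.91% and 12.4%. The phosphofructokinase Pfkl (-0.76 and -0.86), the glycogen branching enzyme Gbe1 (-0.89 and -0.81) and the glycogen phosphorylase Pygl (-0.48 and -0.39) fell. When 1 further array was left out beside the array labelled animal 3, Gbe1 lost its call without PF-04287881 animal 2 (-0.58, adjusted p = 0.0594). Pygl likewise lost its call without PF-04287881 animal 1 (-0.43, adjusted p = 0.105). Of 35 genes of the urea cycle and amino acid breakdown, 7 were called higher and 3 lower without that array, and 7 and 1 with it. The urea cycle list had 20% of its genes called higher and 8.57% lower without that array, beside 13.8% and 18.6% of all genes, and 20% and 2.86% with it, beside 6.91% and 12.4%. Prodh, of proline breakdown, rose by 0.79 ± 0.26 and 0.75 ± 0.23, the aminotransferase Gpt2 by 0.71 ± 0.17 and 0.54 ± 0.16, the ornithine carrier Slc25a15 by 0.61 ± 0.10 and 0.38 ± 0.12 and Nags, which makes the activator of the urea cycle, by 0.56 ± 0.16 and 0.45 ± 0.14. Kmo of tryptophan breakdown fell (-0.46 ± 0.13 and -0.69 ± 0.14). Of these calls, with the array labelled animal 3 and 1 other left out, Prodh lost its call without vehicle animal 4 (0.68, adjusted p = 0.0603) or PF-04287881 animal 1 (0.36, adjusted p = 0.505). Nags likewise lost its call without PF-04287881 animal 1 (0.59, adjusted p = 0.0518) or PF-04287881 animal 2 (0.54, adjusted p = 0.0586). Kmo likewise lost its call without PF-04287881 animal 1 (-0.27, adjusted p = 0.269).

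Among the largest changes over all genes, several fell in no list. Rdh9, a retinol dehydrogenase, had 10.79 and 11.74 in animals 1 and 2 and 11.21 in the array labelled animal 3, against 8.08, 7.82, 9.21 and 8.40 in vehicle animals. It rose by 2.89 ± 0.24 (adjusted p = 4.2e-09) and 2.87 ± 0.21 (adjusted p = 3.06e-09). The array labelled animal 3 lay within the NZW/LacJ vehicle range of 11.14 to 11.30 for Rdh9. The phospholipid-binding annexin Anxa5 had 10.70 and 10.82 in animals 1 and 2 and 9.86 in the array labelled animal 3, against 8.31, 8.19, 8.38 and 8.51 in vehicle animals. It rose by 2.41 ± 0.25 and 2.11 ± 0.24. The syntaxin Stx3, a membrane fusion protein, had 10.79 and 10.13 in animals 1 and 2 and 6.78 in the array labelled animal 3, against 6.99, 7.74, 8.46 and 6.61 in vehicle animals. It rose by 3.01 ± 0.49 and 1.79 ± 0.62, with another bright probe set of Stx3 at 0.576 and 0.432. The potassium channel Kcnk5 rose by 1.81 ± 0.53 and 1.75 ± 0.46, with vehicle animal 3, at 9.08, above PF-04287881 animal 2, at 8.73, and lost its call with animals 3 and 1 left out (1.21, adjusted p = 0.24). Ncbp2, a subunit of the complex that binds the mRNA cap, had 4.61 and 5.52 in animals 1 and 2 and 9.16 in the array labelled animal 3, against 9.57, 9.01, 8.43 and 9.09 in vehicle animals. It fell, with a difference of -3.96 ± 0.25 without that array (adjusted p = 4.27e-11) and -2.60 ± 0.55 with it (adjusted p = 0.00139). Its other bright probe sets were at -2.55 and -1.01 without that array and -1.72 and -0.63 with it. Tardbp, the RNA-binding protein TDP-43, fell (-2.56 ± 0.29 and -1.90 ± 0.35), and the RNA helicase Ddx17 (-1.75 ± 0.30 and -1.67 ± 0.26). Crebzf, a leucine zipper factor, had 5.60 and 6.58 in animals 1 and 2 and 8.64 in the array labelled animal 3, against 9.55, 9.16, 9.63 and 9.06 in vehicle animals. It fell (-3.26 ± 0.19 and -2.41 ± 0.35), while its other bright probe sets were at -3.31 to -0.69 without that array and -2.56 to -0.56 with it.

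Meiob, a DNA-binding protein of meiosis, had 5.17 and 4.32 in animals 1 and 2 and 6.68 in the array labelled animal 3, against 7.97, 7.29, 7.08 and 9.29 in vehicle animals, with no overlap and with vehicle animal 4 the highest. It fell, with a difference of -3.16 ± 0.37 (adjusted p = 5.79e-07) and -2.52 ± 0.40 (adjusted p = 9.95e-05). Stxbp6, a syntaxin-binding protein, had 6.04 and 5.53 in animals 1 and 2 and 9.27 in the array labelled animal 3, against 9.61, 9.07, 8.31 and 10.11 in vehicle animals. It fell (-3.49 ± 0.27 and -2.33 ± 0.48). Aox1, an aldehyde oxidase, had 7.85 and 9.26 in animals 1 and 2 and 9.38 in the array labelled animal 3, against 11.59, 11.58, 9.60 and 11.28 in vehicle animals, with vehicle animal 3 well below the other vehicle animals, and fell (-2.46 ± 0.37 and -2.19 ± 0.34). The recombination protein Rad51b fell (-2.01 ± 0.27 and -1.85 ± 0.24), the transcription factor Rfx4 (-2.59 ± 0.26 and -2.03 ± 0.31), the zinc finger protein Zfp719 (-2.45 ± 0.21 and -1.84 ± 0.29), the nicotinamide riboside kinase Nmrk1 (-1.88 ± 0.33 and -1.74 ± 0.29), the signalling adaptor Stap1 (-1.93 ± 0.41 and -1.72 ± 0.37) and the peroxisomal fatty acid transporter Abcd2 (-2.27 ± 0.36 and -1.72 ± 0.37). Another bright probe set of Rfx4 was at -0.386 and -0.309. For 97 of the 157 named genes called in both fits (61.8%), the array labelled animal 3 lay beyond all vehicle animals on the side of the change. For 57 it lay among them, and for 3 on the opposite side. Over all 2114 genes called in both fits the share beyond was 59.5%, near that of the named genes. This array was part of the fit by which these genes were chosen, so the counts are a description.

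The drug effect in WSB/EiJ was then set against the mean effect in the other 3 strains, which uses the same WSB/EiJ arrays. Without the array labelled animal 3, 4006 genes differed, 1474 with a higher effect in WSB/EiJ (11.4%) and 2532 with a lower one (19.6%), and with it 2556 differed, 763 higher (5.92%) and 1793 lower (13.9%). Vwf differed by 3.60 without that array and 2.34 with it, its effects for MA/MyJ, NZW/LacJ and SM/J being 0.00, 0.30 and -0.04. Socs3, at 2.78 and 1.88, had 0.05, 0.30 and -0.68 in those strains. Neither gene was called there. Nr1d1 differed by 2.85 and 2.68, Cyp51 by 2.86 and 2.08, Rdh9 by 1.96 and 1.94, Slco1a1 by 1.88 and 2.42 and Lyve1 by 2.03 and 1.89. Hao2, a peroxisomal hydroxy acid oxidase, differed by 2.27 and 2.50 without being called within WSB/EiJ: it had 10.67 and 9.84 in animals 1 and 2 and 10.96 in the array labelled animal 3, against 9.65, 8.75, 8.00 and 11.88 in vehicle animals, while its effect was -1.44, -1.03 and -2.28 for MA/MyJ, NZW/LacJ and SM/J. With the array labelled animal 3 left out, the Hao2 difference lost its call when vehicle animal 1, 2 or 3 or either remaining drug animal was also left out (adjusted p = 0.0545 to 0.237).

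Of the genes with a lower effect in WSB/EiJ, Ccnd1 differed by -3.19 (adjusted p = 0.000127) without the array labelled animal 3 and -3.03 with it. MA/MyJ had an effect of 2.03, NZW/LacJ one of 2.66 and SM/J one of 0.55, the opposite sign to WSB/EiJ. Ncbp2 (-4.07 and -2.71), Stxbp6 (-3.56 and -2.40), Meiob (-3.39 and -2.75) and Crebzf (-3.05 and -2.20) also differed, and their effects in the other strains ran from -0.42 for Crebzf in SM/J to 0.54 for Meiob in NZW/LacJ. Nmrk1 differed by -2.57 and -2.43, Stap1 by -2.29 and -2.08 and Nmral1, a redox-sensing protein, by -2.48 and -2.11. By list, the effect in WSB/EiJ was higher for 9 of the 17 cholesterol enzymes without the array labelled animal 3 and 4 with it. Over all genes the higher shares were 11.4% and 5.92%. The effect was lower for 16 and 7 of the 36 genes of fatty acid oxidation and 37 and 26 of the 70 mitochondrial ribosomal proteins. Over all genes the lower shares were 19.6% and 13.9%, and the 7 of 36 lie not far from the latter. The median effects for those 3 lists for MA/MyJ, NZW/LacJ and SM/J were 0.33, 0.49 and 0.35, then -0.09, -0.08 and -0.15, then 0.01, 0.08 and -0.08. Monocyte and lipid-associated macrophage markers differed in 0 genes without that array and in 1, lower, with it, with medians of 0.56 in WSB/EiJ and 0.90, 1.0 and 0.28 for MA/MyJ, NZW/LacJ and SM/J.

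**Figure D5:**
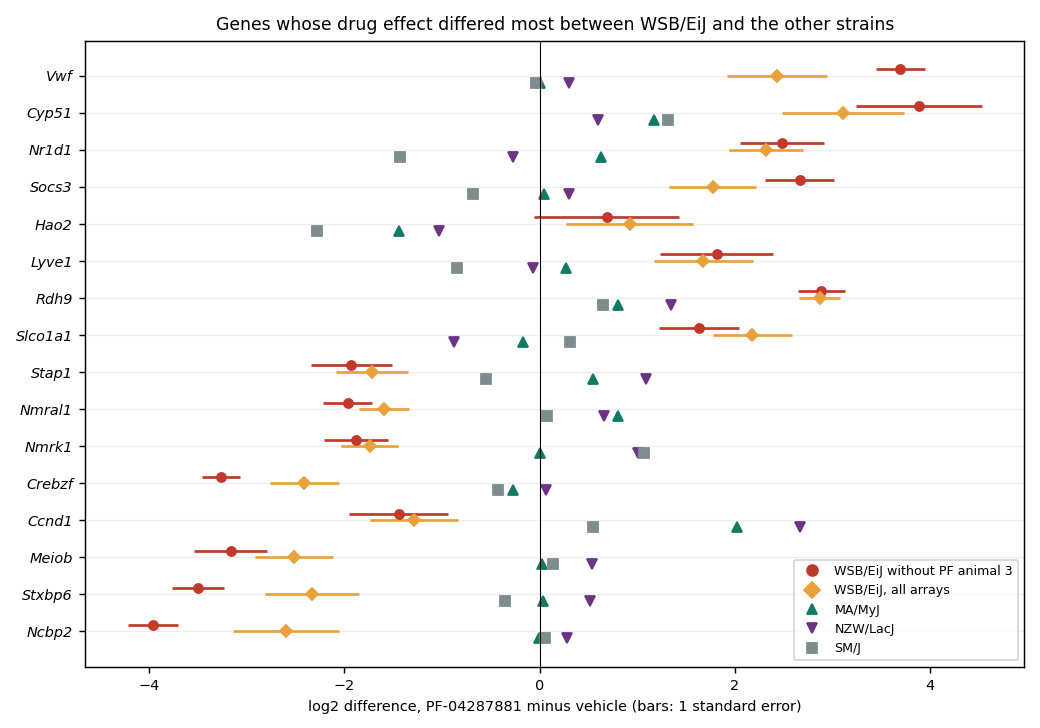
Log2 difference (PF-04287881 minus vehicle) of 16 genes in WSB/EiJ without (circles) and with (diamonds) the array labelled animal 3, with bars of 1 standard error, and for MA/MyJ, NZW/LacJ and SM/J. Ccnd1 is negative in WSB/EiJ and positive in the other strains, at 2.03, 2.66 and 0.55, and Ncbp2, Stxbp6 and Vwf move in WSB/EiJ while the other strains lie between -0.35 and 0.52.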

How the data were processed

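Liver RNA of 31 female mice was amplified once, labelled with biotin and hybridised to Affymetrix arrays, per the labels' protocols. The authors deposited log2 values of 44721 probe sets, and RMA and Affymetrix Power Tools are named in the submitters' processing notes, without versions. Of the probe sets, 34728 carry 1 gene symbol, 872 several and 9121 none; the brightest probe set over all arrays stood for each of 18147 genes. Genes above the median of all values (6.49) in at least 3 arrays were tested, 12890 in all. Limma 3.58.1 (R 4.3.3) was fitted with a mean for each strain and treatment, with 31 arrays and with 30, after leaving out WSB/EiJ animal 3 as labelled for PF-04287881. The scripts were tested on simulated data. Named genes were the 15 largest changes each way called in both fits, the 8 largest differences each way from the other strains, and up to 6 of each list by size. Members and lists were chosen with earlier results of these data known. The labels name separate animals, and p-values rest on the spread between animals of a group, pooled over the 4 strains. With all 31 arrays, that spread also holds the distance of the array labelled animal 3 from the other WSB/EiJ drug arrays. The number of arrays limits the precision. Alternatives were leaving out arrays, the filter, the choice of probe set, centring on array medians, a trended and robust fit, array weights and a replicate block.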

Additional observations from a re-analysis of the deposited data

Results flagged for a closer look

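In 9 of the 201 genes chosen for naming, 1 vehicle animal stood far from the other 3; about 1 group in 20 does so by chance. Vehicle animal 4 stood apart in Acp2 (10.44), Cyp2c54 (12.62), Lyve1 (4.968) and Psma4 (12.55). Vehicle animal 3 stood apart in Aox1 (9.604), Dhcr7 (9.634), Reln (10.87), a secreted matrix protein, and Slco1a4 (10.96), a bile acid and drug uptake transporter. Vehicle animal 2 stood apart in Ugt2b5 (13.13), a glucuronosyltransferase. The part of any 1 animal's liver in these values was not tested.

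The drug effect in WSB/EiJ differed from the mean of the other 3 strains in the limma test of that difference, adjusted over all genes, for 95 of the 201 genes chosen for naming in both fits, 34 with a higher effect and 61 with a lower one. Over all 12890 genes tested, the difference was called in both fits for 595 higher and 1577 lower. The 201 were mostly chosen for their calls in WSB/EiJ on these same arrays, so their count is a description. The 16 given here are the 8 largest in each direction and were chosen for that size. Without and with the array labelled animal 3, the difference was positive for Vwf (3.605 and 2.34), Cyp51 (2.859 and 2.08), Nr1d1 (2.847 and 2.68), Socs3 (2.776 and 1.88), Hao2 (2.27 and 2.50), Lyve1 (2.03 and 1.89), Rdh9 (1.955 and 1.94) and Slco1a1 (1.877 and 2.42). It was negative for Ncbp2 (-4.071 and -2.71), Stxbp6 (-3.564 and -2.40), Meiob (-3.394 and -2.75), Ccnd1 (-3.189 and -3.03), Crebzf (-3.051 and -2.20), Nmrk1 (-2.569 and -2.43), Nmral1 (-2.481 and -2.11) and Stap1 (-2.289 and -2.08).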

How the results depend on the processing

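With all 31 arrays 2488 genes were called in WSB/EiJ and 2556 differed from the other strains. Leaving out 1 WSB/EiJ array at a time gave 1282 (without PF-04287881 animal 1) to 4180 (without animal 3) and 1729 to 4006. With animal 3 left out, the counts were 3993 without vehicle animal 4 as well, 4067 and 3889 without vehicle animal 2, 4797 and 4599 without vehicle animal 3, 3525 and 3342 without vehicle animal 1, 3365 and 3330 without PF-04287881 animal 2, and 2187 and 2064 without animal 1. The 3 fits without vehicle animal 1, 2 or 3 were chosen after seeing the data. WSB/EiJ arrays alone gave 4 calls (1971 genes at an unadjusted p under 0.05), and 990 without animal 3. Also without animal 3, no filter gave 4186 and 3978, and the mean over probe sets 4030. Array weights gave 4209 and 4283. The replicate block gave 2252 and 2413, and 4080 and 3866 without animal 3. Same-numbered animals had correlations of -0.292, 0.413 and -0.522 in their deviations from the group means. The drug group mean held the array labelled animal 3, so this check cannot tell whether the numbers pair the animals. Serpina3n (-0.08 with all arrays, -0.34 without animal 1) was at 0.41 without animal 3, and at 0.42, 0.42, 0.49, 0.41, 0.41 and 0.41 in further fits without it. With the mean over probe sets, Mtor was at 0.033 (0.067 without animal 3), Nfe2l2 at 0.40 and Dnaja2 at -0.045 without animal 3. Of 157 named genes called in both fits, 53 lost the call when 1 more array was left out, 47 of them without PF-04287881 animal 1, and 0 reversed. The median of 15 of 38 lists changed sign under some alternative. The cause of these changes, the fewer arrays among them, was not tested. No value is given for genes that a stricter filter leaves untested.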
